A study of Mus musculus with 6 samples.

Results

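Errfi1, 3 receptors of the ErbB family and 6 of their ligands were followed in primary mouse muscle stem cells in which the Mediator subunit gene Med23 had been targeted. The set was Errfi1, Egfr, Erbb2, Erbb3, Areg, Ereg, Hbegf, Tgfa, Btc and Nrg1. These are 10 of the 32973 genes of the deposited expression table, chosen by name with earlier results of this comparison known, and all 10 had a row. Their differences between genotypes are therefore a description and are given without p-values. Where a count says which of them passed the threshold of the fit across all genes, that count supports nothing about them.

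The receptors of the ErbB family are tyrosine kinases of the cell surface that pair when a ligand binds and then signal through the RAS-ERK and PI3 kinase routes. ERRFI1, also called MIG6, is an adaptor inside the cell that binds the kinase domain of active EGFR and ERBB2 and blocks it; its gene is itself induced by growth factors, which makes it a feedback inhibitor. ERBB2 has no ligand of its own, and ERBB3 binds neuregulins but has little kinase activity, so that it signals with a partner such as ERBB2. The ligands are made as membrane proteins and released by ADAM proteases. In muscle, neuregulin signalling is known from nerve endings and muscle spindles, and EGFR from the oriented division of muscle stem cells.

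RNA was sequenced from 3 libraries of Med23flox/flox::Pax7CreERT2 cells (Med23KO replicates 1 to 3) and 3 libraries of Med23flox/flox cells (Ctrl replicates 1 to 3). All cells were sorted from skeletal muscle by flow cytometry and kept for 3 days on collagen in F10 medium. The medium held 20% serum, 1% penicillin-streptomycin and 5 ng/ml basic fibroblast growth factor, so both groups were measured under growth factor stimulation. Both groups carried the loxP-flanked alleles, and the Med23KO cells alone carried the inducible Cre, whose expression follows Pax7, so Med23 loss and Cre activity cannot be told apart. The labels give the treatment as none and give no age, and they do not say whether the libraries came from separate animals, and the p-values may thus reflect technical spread alone.

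Med23 itself had 5.10, 5.86 and 4.23 FPKM (fragments per kilobase of transcript, scaled to the mapped fragments of the library) in the Med23KO libraries, against 10.4, 11.7 and 10.2 FPKM in the Ctrl libraries. The Med23KO mean was 47.1% of the Ctrl mean, so Med23 transcript was lowered but not absent in the libraries called knockout here. The source of the remaining transcript was not tested. The log2 fold change of Med23 was -0.96 with an SE of 0.133 (limma adjusted p = 0.0197). In 5 of the 6 fits that left out 1 library, all but that without Med23KO replicate 3, the limma adjusted p was above 0.05, at up to 0.108. The myogenic markers Pax7, Myf5 and Myod1 were present in every library, and the list of 9 myogenic markers summed to 1092 to 1868 FPKM in Med23KO and 1264 to 1959 FPKM in Ctrl libraries. Myod1 was the largest part of these sums. Of the 8 tested, 5 had a positive and 3 a negative log2 fold change, and 0 were called. Itga7 was lower without overlap (-0.74, limma adjusted p = 0.0515), and Cdh15 was higher with overlap (0.76, limma adjusted p = 0.168). Epithelial markers were low, with all 7 below 1 FPKM in the mean over the 6 libraries, Krt5 and Krt14 at 0 throughout and a summed level of 0.253 to 0.531 FPKM in Med23KO and 1.32 to 2.39 FPKM in Ctrl libraries. Most of the Ctrl sum was Krt18, a keratin gene, which had 0.217, 0.208 and 0.169 FPKM in Med23KO libraries, against 1.36, 1.21 and 1.72 FPKM in Ctrl libraries, with no overlap. Its part in the results below was not tested. Endothelial markers summed to 4.31 to 7.08 FPKM in Med23KO and 5.26 to 10.3 FPKM in Ctrl libraries, and immune markers to 2.46 to 4.68 FPKM in Med23KO and 2.47 to 5.29 FPKM in Ctrl libraries. Of the 12336 genes tested, those whose mean reached 1 FPKM, 184 were higher and 175 lower in Med23KO (limma, Benjamini-Hochberg adjusted p under 0.05).

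Errfi1 and Areg are shown with the 250 bases before their transcription starts, since each held the cyclic AMP response element TGACGTCA close to a start. The sequences are from the RefSeq promoter table on GRCm38.p6, plus strand, written 5′ to 3′, with TGACGTCA and the TEAD motif GGAATG (read on the minus strand) in capitals. Errfi1 has 2 annotated starts, and both are given (chr4:150853546-150853795 and chr4:150854820-150855069); the Areg stretch is chr5:91139349-91139598.
Errfi1 upstream start: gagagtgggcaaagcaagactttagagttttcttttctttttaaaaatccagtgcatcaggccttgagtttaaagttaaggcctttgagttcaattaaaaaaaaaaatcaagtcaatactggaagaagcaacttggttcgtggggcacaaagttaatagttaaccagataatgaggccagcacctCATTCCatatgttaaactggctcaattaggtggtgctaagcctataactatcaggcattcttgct
Errfi1 downstream start: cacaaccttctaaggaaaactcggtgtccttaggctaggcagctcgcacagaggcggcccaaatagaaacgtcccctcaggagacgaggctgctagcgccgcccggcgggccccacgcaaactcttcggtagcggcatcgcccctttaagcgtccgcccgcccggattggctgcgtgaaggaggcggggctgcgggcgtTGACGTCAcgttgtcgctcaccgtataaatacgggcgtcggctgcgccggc
Areg: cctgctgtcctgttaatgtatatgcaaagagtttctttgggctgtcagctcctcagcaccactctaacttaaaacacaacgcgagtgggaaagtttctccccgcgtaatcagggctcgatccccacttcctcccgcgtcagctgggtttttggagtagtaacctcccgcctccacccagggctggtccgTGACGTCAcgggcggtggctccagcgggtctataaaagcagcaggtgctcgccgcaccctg

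The element lay at positions -51 to -44 from the downstream start of Errfi1 and at -61 to -54 from the start of Areg, where -1 is the last base before the start. It was found in the 250 bases before 1.55% of the 32851 starts in the table. Of the 10 genes, 6 matched the table with 7 starts in all (Errfi1, Egfr, Erbb2, Areg, Tgfa and Btc), and Ereg, Erbb3, Hbegf and Nrg1 had no entry. The TEAD motif, present before 12.6% of all starts, lay at -65 to -60 from the upstream start of Errfi1 and at -88 to -83 from the start of Erbb2. All motifs were searched on both strands. The AP-1 motif TGANTCA (before 6.75% of all starts), the CArG box (1.47%), the ETS motif CCGGAAGT (2.88%), the EGR motif GCGTGGGCG (0.536%) and the glucocorticoid element, AGAACA and TGTTCT with 3 free bases between them (0.00913%), gave 0 matches in the 7 stretches. No match overlapped another. Egfr, Tgfa and Btc had no match to any of the motifs. A link between the motifs and the differences between genotypes was not tested. A match of letters is no evidence of binding, and the expression table does not separate the 2 starts of Errfi1.

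Errfi1, the feedback inhibitor, was the most abundant of the 10 genes by far and about 3 times lower in the knockout cells. It had 111, 133 and 128 FPKM in the Med23KO libraries, against 344, 360 and 386 FPKM in the Ctrl libraries. The groups were far apart, since the highest Med23KO library lay well under the lowest Ctrl library. The mean was 124 ± 11.6 FPKM in Med23KO and 364 ± 21.1 FPKM in Ctrl (SD, n = 3 each), so the knockout cells kept 34.1% of the Ctrl mean. Errfi1 had a log2 fold change of -1.55 (SE 0.101) on the log2(FPKM + 1) scale used for all fold changes here, and ranked 23 among the 12336 genes from the most negative value up. By mean level, Errfi1 ranked 510 among these genes in Med23KO and 192 in Ctrl. The gene lies on chromosome 4 of mm10 (ENSMUSG00000028967.10, positions 150853919 to 150868892, plus strand). Its overlapping antisense gene 1700045H11Rik was listed at 0 in all 6 libraries. In bulk RNA, fewer cells that express a gene and less RNA per cell cannot be told apart.

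Of the receptors, Erbb3 alone separated the groups. Erbb3 had 14.1, 14.1 and 6.31 FPKM in the Med23KO libraries, against 3.93, 3.62 and 2.33 FPKM in the Ctrl libraries. Every Med23KO value was above every Ctrl value, but Med23KO replicate 3 had less than the other replicates of its group by more than 2 times, and Ctrl replicate 3 was also the lowest of its group. The mean was 11.5 ± 4.49 FPKM in Med23KO and 3.29 ± 0.851 FPKM in Ctrl (SD, n = 3 each), a ratio of 3.49 and a log2 fold change of 1.49 (SE 0.302), ranking 52 from the most positive value down.

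Egfr, the receptor of most of the ligands measured here, had 14.5, 12.9 and 9.79 FPKM in the Med23KO libraries, against 16.4, 12.2 and 11.9 FPKM in the Ctrl libraries. The groups overlapped, and the log2 fold change of -0.12 (SE 0.176) was smaller than its error and changed sign in 3 of the alternative fits. Erbb2, the partner receptor without a ligand, had 12.5, 11.6 and 8.92 FPKM in the Med23KO libraries, against 10.3, 10.5 and 7.91 FPKM in the Ctrl libraries. These groups also overlapped, with a log2 fold change of 0.18 (SE 0.16). As for Erbb3, the lowest Egfr and Erbb2 value of each group was in replicate 3. Erbb2 overlaps Mien1 on the other strand, which had 12.1 ± 0.702 FPKM in Med23KO and 12.9 ± 0.263 FPKM in Ctrl (SD, n = 3 each), and although the libraries were strand-specific, whether the counting used the strand is not given in the sources used here.

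With Erbb3 higher, the make-up of the receptor transcripts differed. Erbb3 made up 34.3%, 36.6% and 25.2% of the summed FPKM of Egfr, Erbb2 and Erbb3 in the Med23KO libraries, against 12.8%, 13.7% and 10.5% in the Ctrl libraries. The share of Egfr was 35.3%, 33.5% and 39.1% in Med23KO, against 53.5%, 46.5% and 53.8% in Ctrl. The receptors were thus present in nearly equal amounts in Med23KO replicates 1 and 2, whereas Egfr led in every Ctrl library. The level of Erbb3 relative to Erbb2 was 1.13, 1.22 and 0.708 in Med23KO, against 0.381, 0.346 and 0.294 in Ctrl. The sum of the 3 receptors was 41.0, 38.6 and 25 FPKM in Med23KO and 30.6, 26.3 and 22.2 FPKM in Ctrl, and these sums overlapped.

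The amount of inhibitor transcript per receptor transcript followed Errfi1. The ratio of Errfi1 to Egfr, both in FPKM and so per length, was 7.65, 10.3 and 13.0 in the Med23KO libraries, against 21, 29.4 and 32.4 in the Ctrl libraries. Set against the sum of Egfr, Erbb2 and Erbb3, the ratio was 2.70, 3.45 and 5.11 in Med23KO, against 11.2, 13.7 and 17.4 in Ctrl. Errfi1 transcript exceeded that of the receptors in every library of both groups, and neither ratio overlapped between the groups.

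**Figure D1:**
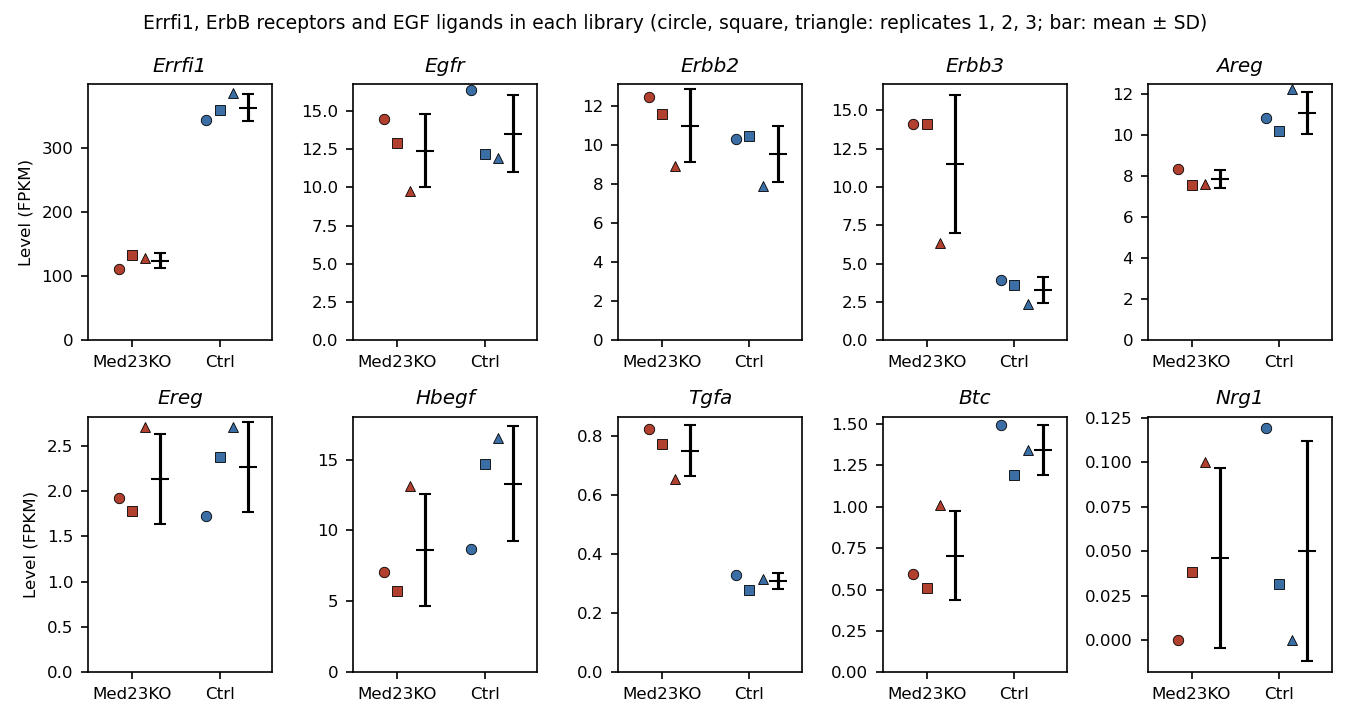
Level in FPKM of each of the 10 genes in the 3 Med23KO libraries (red, left) and the 3 Ctrl libraries (blue, right); the black bar is the mean ± SD and each panel has its own axis. Errfi1, Areg and Btc lie lower in every Med23KO library, Erbb3 and Tgfa higher, and the other 5 overlap.

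Of the ligands, the tested Areg, Hbegf, Btc and Ereg had negative log2 fold changes, that of Ereg only -0.06. Tgfa, whose mean was below 1 FPKM and which was not tested, had a positive difference of 0.42. Areg, which encodes amphiregulin, a ligand of EGFR, had 8.35, 7.55 and 7.61 FPKM in the Med23KO libraries, against 10.8, 10.2 and 12.2 FPKM in the Ctrl libraries. All Med23KO values lay below all Ctrl values, with means of 7.84 ± 0.445 FPKM in Med23KO and 11.1 ± 1.06 FPKM in Ctrl (SD, n = 3 each) and a log2 fold change of -0.45 (SE 0.111). Areg was thus 1.41 times lower in Med23KO.

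Hbegf, the gene of heparin-binding EGF-like growth factor, had 7.06, 5.73 and 13.1 FPKM in the Med23KO libraries, against 8.72, 14.7 and 16.5 FPKM in the Ctrl libraries. Med23KO replicate 3 lay inside the Ctrl range, so the groups overlapped. The log2 fold change was -0.60 (SE 0.315). In both groups Hbegf was highest in replicate 3, the replicate in which Egfr, Erbb2 and Erbb3 were lowest. The receptors were not alone in this, since genes such as Pax7, Myf5 and Myod1 were also lowest in replicate 3 of both groups.

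Btc, which encodes betacellulin, a ligand of EGFR and ERBB4, had 0.594, 0.507 and 1.01 FPKM in the Med23KO libraries, against 1.49, 1.19 and 1.34 FPKM in the Ctrl libraries. The groups did not overlap, and Med23KO cells had 52.6% of the Ctrl mean. On the log2 scale this was -0.47 (SE 0.168), which understates the ratio of so low a gene. With a mean over the 6 libraries of 1.02 FPKM, Btc was just above the filter of 1 FPKM used for testing. Ereg, the epiregulin gene, had 1.92, 1.78 and 2.70 FPKM in the Med23KO libraries, against 1.72, 2.37 and 2.70 FPKM in the Ctrl libraries. Its groups covered almost the same range, and its log2 fold change of -0.06 (SE 0.178) changed sign in 2 of the alternative fits.

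Tgfa, which encodes transforming growth factor alpha, was the only ligand of the 6 that was higher in every Med23KO library. It had 0.823, 0.774 and 0.654 FPKM in Med23KO, against 0.331, 0.279 and 0.317 FPKM in Ctrl, so the groups were apart at a level below 1 FPKM. The ratio of the means was 2.43. The difference on the log2(FPKM + 1) scale was 0.42, and 1.05 with a pseudocount of 0.1 FPKM. Nrg1, the neuregulin gene whose product binds ERBB3 and ERBB4, was close to 0, with 0, 0.0384 and 0.10 FPKM in Med23KO and 0.119, 0.0316 and 0 FPKM in Ctrl. Tgfa, with a mean of 0.530 FPKM over the 6 libraries, and Nrg1 were below the filter on low values, and the deposited FPKM do not give the number of reads behind them.

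Together the 6 ligands summed to 18.7, 16.4 and 25.1 FPKM in the Med23KO libraries, against 23.2, 28.7 and 33.1 FPKM in the Ctrl libraries, with overlap between the groups. Areg and Hbegf made up most of the sum everywhere. Tgfa contributed 4.39%, 4.72% and 2.60% of it in Med23KO, against 1.43%, 0.971% and 0.959% in Ctrl. The share of Ereg was 10.2%, 10.9% and 10.7% in Med23KO, against 7.43%, 8.26% and 8.16% in Ctrl. These shares did not overlap even though the level of Ereg did, with means of 2.13 FPKM in Med23KO and 2.26 FPKM in Ctrl. The ligand sum, by which the share is divided, had means of 20.1 FPKM in Med23KO and 28.3 FPKM in Ctrl.

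**Figure D2:**
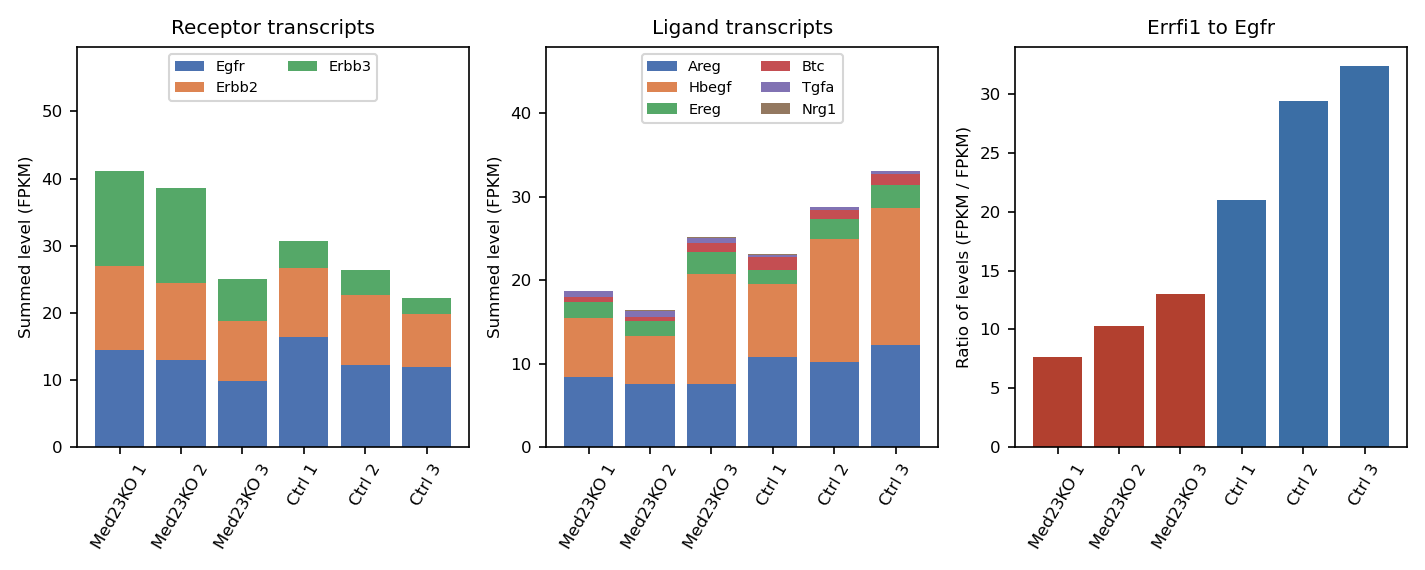
Left and centre, FPKM of the receptor and ligand genes stacked for each library; right, the ratio of Errfi1 to Egfr in each library, with Med23KO in red and Ctrl in blue. Erbb3 takes 25.2% to 36.6% of the receptor sum in Med23KO and 10.5% to 13.7% in Ctrl, and the Errfi1 to Egfr ratio is at most 13.0 in Med23KO and at least 21 in Ctrl.

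Within the knockout cells the order by mean level was Errfi1, Egfr, Erbb3, Erbb2, Hbegf, Areg, Ereg, Tgfa, Btc and Nrg1. The ranges of neighbours overlapped from Egfr through Erbb3, Erbb2 and Hbegf to Areg, and between Tgfa and Btc. In control cells the order was Errfi1, Egfr, Hbegf, Areg, Erbb2, Erbb3, Ereg, Btc, Tgfa and Nrg1, with overlap from Egfr through Hbegf and Areg to Erbb2, and between Erbb3 and Ereg. Erbb3 therefore stood among the other receptors in the knockout and beside Ereg in the control, and Tgfa was level with Btc in the knockout and under it in the control.

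In the fit across all genes, 2.91% of the 12336 tested genes were called. Among the 8 of the 10 genes that passed the filter, Errfi1 was called lower and Erbb3 higher, and Egfr, Erbb2, Areg, Ereg, Hbegf and Btc were not called. The median log2 fold change was -0.28 over these 8 genes and -0.03 over all tested genes. The groups of 3 libraries did not overlap in 4 of the 8 (Errfi1, Erbb3, Areg and Btc), as in 24.7% of all tested genes. The authors' deposited table marked 5 of the 10 as changed (Errfi1, Erbb3, Hbegf, Tgfa and Btc), as it did 15.7% of the 13123 genes that it tested. Nothing is read from these counts, because the same contrast was known when the genes were chosen.

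**Figure D3:**
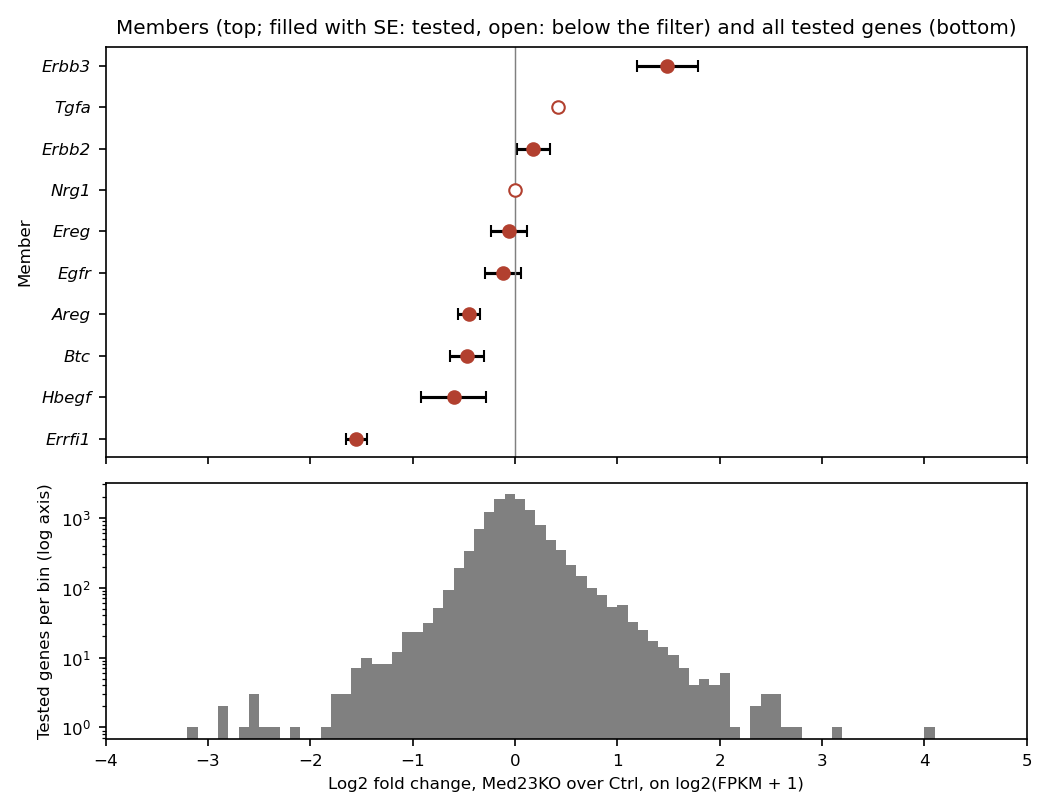
Top, log2 fold change of the 10 genes, Med23KO over Ctrl, on the log2(FPKM + 1) scale, filled with its SE where the gene was tested and open where it was below the filter; bottom, all 12336 tested genes in bins of 0.1, with a log axis of counts. Errfi1 at -1.55 and Erbb3 at 1.49 lie in the tails, and the other 8 between -0.60 and 0.42.

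The size of the differences was also read with each library left out in turn. For Errfi1 the log2 fold change lay between -1.60 and -1.47. For Erbb3 it was 1.83 without Med23KO replicate 3 and between 1.31 and 1.6 with any 1 of the other 5 libraries left out. Erbb3 no longer passed the threshold of the fit across all genes in those 5 fits. Hbegf ranged from -0.91, with Med23KO replicate 3 absent, to -0.38, with Med23KO replicate 2 absent.

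**Figure D4:**
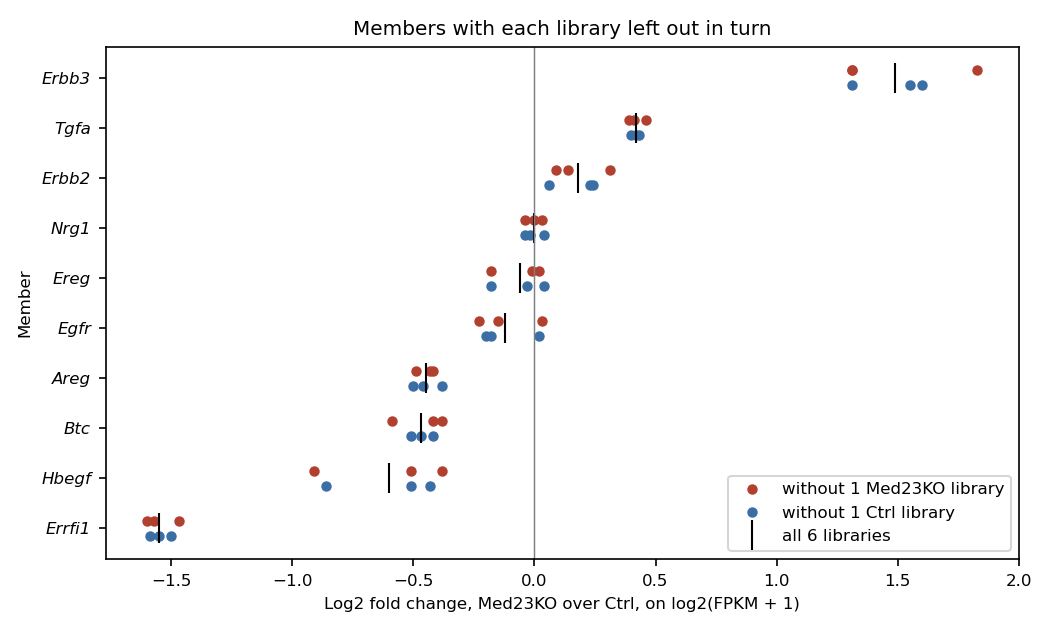
Log2 fold change of each gene, Med23KO over Ctrl, on the log2(FPKM + 1) scale, with all 6 libraries (black bar), without 1 Med23KO library (red points) and without 1 Ctrl library (blue points). Errfi1 stays between -1.60 and -1.47 and Erbb3 between 1.31 and 1.83, while Egfr, Ereg and Nrg1 lie on both sides of 0.

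Markers of cells that express ErbB receptors outside the muscle lineage were set beside these values. Of 7 Schwann cell markers, 5 were below a mean of 1 FPKM, among them the defining factor Sox10 with 0.183, 0.361 and 0.172 FPKM in Med23KO and 0.165, 0.366 and 0.184 FPKM in Ctrl. The summed level of this list was 29.2 to 145 FPKM in Med23KO and 19.5 to 53.4 FPKM in Ctrl. Nearly all of it was the neurotrophin receptor gene Ngfr, with 144, 106 and 26.9 FPKM in Med23KO and 51.8, 29.1 and 17.5 FPKM in Ctrl. Of 8 markers of fibro-adipogenic progenitors and fibroblasts, 7 were tested, all 7 had a positive log2 fold change and 0 were called by limma, against 3 at an unadjusted p under 0.05 and 5 in the authors' deposited table. This list summed to 214 to 345 FPKM in Med23KO and 157 to 221 FPKM in Ctrl. The part of either cell type in the Erbb3 and Errfi1 values was not tested.

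Of the other 6 genes of the family, all were close to 0. Egf had 0.113, 0.197 and 0.171 FPKM in the Med23KO libraries, against 0.153, 0.234 and 0.344 FPKM in the Ctrl libraries. The epigen gene Epgn had 0.181, 0.0705 and 0.275 FPKM in Med23KO, against 0, 0.0593 and 0.140 FPKM in Ctrl. Nrg2 and Nrg4 were at most 0.0815 FPKM and Nrg3 was listed at 0 in all libraries. The receptor gene Erbb4 was listed at 0 in all libraries but Med23KO replicate 2, which had 0.0193 FPKM. Egfr, Erbb2 and Erbb3 were therefore the receptor genes with a level above 1 FPKM.

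The machinery that releases the ligands showed small differences. Of 12 tested genes of ligand shedding and trafficking, 0 were called in either direction by limma, and the median log2 fold change was 0.02. At an unadjusted p under 0.05 the count was 2 higher and 1 lower, and the authors' deposited table called 1. The protease gene with the smallest p, Adam9, had 41.4, 39.4 and 33.0 FPKM in Med23KO, against 29.9, 26.1 and 25.8 FPKM in Ctrl (log2 difference of 0.46 with an SE of 0.118, limma adjusted p = 0.0878). Adam17, the main sheddase of several EGFR ligands, had 38.0, 33.1 and 32.3 FPKM in Med23KO, against 29.6, 26.9 and 28.8 FPKM in Ctrl (limma adjusted p = 0.202). Neither gene overlapped between the groups, and neither passed the threshold. The list had 1 call with median scaling, 2 with array weights, 4 with a replicate block and 1 without Med23KO replicate 3.

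Of 26 tested adaptors and relay genes that carry the signal from the receptors, 0 were called by limma and the median log2 fold change was 0.01. This count of 0 depended on the settings: it was 1 with the filter at 5 FPKM, 2 under quantile normalization, 2 with median scaling, 4 with array weights, 7 with a replicate block and 3 without Med23KO replicate 3. At an unadjusted p under 0.05 it was 6, all higher, and the authors' deposited table called 4. Pik3r1, a regulatory subunit of PI3 kinase, had the smallest p, with 29.8, 28.7 and 30.0 FPKM in Med23KO, against 18.8, 21.4 and 22.4 FPKM in Ctrl (0.48 on the log2 scale with an SE of 0.0997, limma adjusted p = 0.0511). The largest differences in the list were in Map2k1 and Shc1, which were picked for this after their values were seen. Map2k1, the MEK1 gene, had 105, 94.3 and 54.0 FPKM in Med23KO, against 46.6, 39.5 and 36.6 FPKM in Ctrl (log2 difference of 0.98, SE of 0.240, limma adjusted p = 0.0764). Shc1, an adaptor that binds active ErbB receptors, had 114, 101 and 65.7 FPKM in Med23KO, against 56.6, 59.1 and 46.1 FPKM in Ctrl (limma adjusted p = 0.101). In both genes, as in Erbb3, Med23KO replicate 3 was nearest to the controls.

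Of 22 tested genes that dampen the receptors or take them into the cell, 0 were called by limma and the median was -0.04. At an unadjusted p under 0.05 the count was 1 higher and 1 lower, and the authors' deposited table called 1. The limma count was 2 with array weights, 2 with a replicate block and 2 without Med23KO replicate 3. The lowest p belonged to Ubash3b, with 2.06, 2.25 and 3.48 FPKM in Med23KO, against 3.60, 5.65 and 5.53 FPKM in Ctrl (-0.72 in log2, SE of 0.208, limma adjusted p = 0.116). Cbl, the ubiquitin ligase gene that acts on EGFR, had 18.8, 22.1 and 20.7 FPKM in Med23KO, against 25.1, 25 and 22.7 FPKM in Ctrl (limma adjusted p = 0.270).

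Among genes that ERK signalling induces, limma called 5 of 23 tested lower and 0 higher. The log2 fold change was positive in 12 and negative in 11, with a median of 0.03, close to that of all genes. At an unadjusted p under 0.05 the count was 2 higher and 10 lower, and the authors' deposited table called 11. Those called lower by limma were Dusp5, Egr1, Egr3, Junb and Myc. Over all tested genes, 1.42% were called lower. Dusp5, an ERK phosphatase gene, had 6.35, 5.86 and 6.77 FPKM in Med23KO, against 21.2, 21.7 and 16.2 FPKM in Ctrl (-1.49 in log2, SE of 0.137, limma adjusted p = 0.00676). Egr1, an immediate early transcription factor gene, had 6.69, 5.52 and 3.93 FPKM in Med23KO, against 53.2, 38.8 and 25.8 FPKM in Ctrl (limma adjusted p = 0.0101). Egr3, of the same family, had 4.04, 3.85 and 2.87 FPKM in Med23KO, against 12.0, 13.3 and 9.93 FPKM in Ctrl (limma adjusted p = 0.0104). None of these groups overlapped. Junb, an AP-1 subunit gene, had 40.9, 41.5 and 38.7 FPKM in Med23KO, against 62.9, 73.8 and 56.2 FPKM in Ctrl (limma adjusted p = 0.0342). Myc had 23.5, 21.5 and 16.3 FPKM in Med23KO, against 45.1, 37.8 and 33.4 FPKM in Ctrl (limma adjusted p = 0.0368). Other feedback genes of the same route were not called. Among them, Dusp6, Spry2, Spred3 and Spry1 had positive log2 fold changes of 0.25, 0.28, 0.59 and 0.88 (limma adjusted p = 0.155 for Spry1). Spred2 had a negative one of -0.11. Ier2 and Fosl1 were also not called, with negative log2 fold changes of -0.79 and -0.75 (limma adjusted p = 0.0534 and 0.101). The limma count for this list was 3 without a filter on low values, 6 under quantile normalization and 6 with median scaling. It was 9 with array weights and 11 with a replicate block. Without Med23KO replicate 2, 0 of the genes of all 5 lists were called, against 5 with all libraries and 13 without Med23KO replicate 3. The count was 3, 1 and 4 without Ctrl replicates 1, 2 and 3, and 3 without Med23KO replicate 1.

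**Figure D5:**
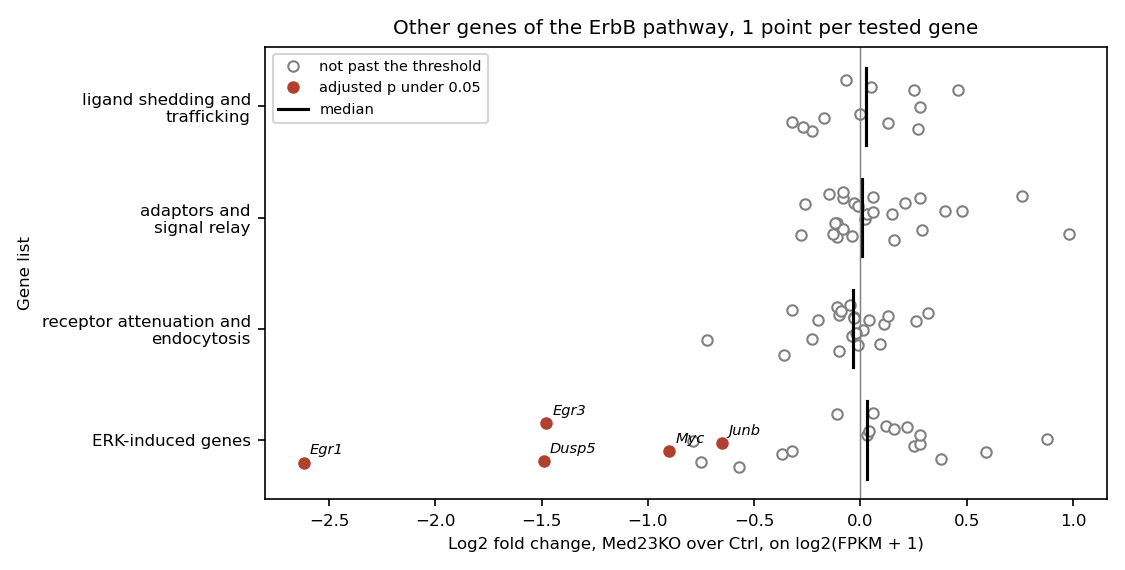
Log2 fold change, Med23KO over Ctrl, on the log2(FPKM + 1) scale, of the tested genes of 4 lists of the ErbB pathway, 1 point per gene with random height, filled where the limma adjusted p was under 0.05; the black line is the list median. The medians lie between -0.04 and 0.03, and the 5 filled points are all below 0 in the list of ERK-induced genes.

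The genes with the profile most like that of Errfi1 were sought among 8805 other genes whose mean reached 5 FPKM. Likeness was the mean absolute difference of log2(FPKM + 1), centred per gene, over the 6 libraries, and its median over all genes compared was 0.748. The 5 nearest were the glycosyltransferase gene Gcnt4 (0.111), the RNA-editing enzyme gene Adarb1 (0.118), Fam19a5 (0.130), the chromatin protein gene Hmga2 (0.149) and the reductase gene Ptgr1 (0.149). All 5 were called lower by limma, with log2 fold changes between -1.38 and -1.25. Hmga2, for example, had 64.2, 64.7 and 71.6 FPKM in Med23KO, against 153, 176 and 153 FPKM in Ctrl. Their direction follows from the likeness to Errfi1 and adds no evidence. For Erbb3, sought in the same way after its values were seen, the nearest were the convertase gene Pcsk6 (0.0884), the homeobox gene Prox1 (0.0969), Gas6 (0.101), 4933433N18Rik (0.103) and AW551984 (0.112). In each of these, as in Erbb3, replicate 3 was the lowest library of its group. This too follows from the likeness by which they were picked and adds no evidence. Of these 5, AW551984 alone was called (limma adjusted p = 0.0316).

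Ereg, Areg and Btc lie within 1 stretch of chromosome 5 of mm10 and were compared with their neighbours. Ereg spans positions 91074622 to 91093646, Areg 91139599 to 91148432 and Btc 91357261 to 91402994, with Epgn just before Ereg. Of the genes that start within 500 kb and were tested, Parm1 alone was called. Parm1, whose start is 114.6 kb from that of Btc, rose to 29.5, 28.3 and 16.1 FPKM in Med23KO, against 7.94, 5.07 and 3.26 FPKM in Ctrl (2.02 in log2, SE of 0.313, limma adjusted p = 0.0241). This was opposite to Btc and Areg. Leaving out Ctrl replicate 2, Ctrl replicate 3, Med23KO replicate 1 or Med23KO replicate 2 ended the call, with limma adjusted p-values up to 0.138. The other such neighbours, Mthfd2l, Cxcl1, Cxcl5 and Pf4, had log2 fold changes of 0.19, 0.37, 0.72 and -0.11 and were not called. Near Errfi1, Park7, Per3 and Vamp3 had log2 fold changes of 0.14, 0.14 and 0.05 and were not called.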

How the data were processed

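The authors deposited 1 table with the FPKM of each library and a Cuffdiff comparison; FastQC, cutadapt, STAR, Cuffdiff and the mm10 build are named per the submitters' processing notes, while versions, annotation and strand setting are not given in the sources at hand. The authors' deposited q-values served only to set their calls beside those made here. Of 12368 rows listed by Ensembl identifier alone, 12316 matched a symbol. FPKM are not counts, and for no library pair did more than 23.5% of the low genes have 1 common step ratio (tolerance 0.03, log2), so the depth is unknown. The sum of FPKM was 599738 to 675095 in Med23KO and 697886 to 746973 in Ctrl libraries. A large part of each sum was the single gene Rmrp, with 173041 to 205244 FPKM in Med23KO and 225416 to 239590 FPKM in Ctrl libraries.

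Values were taken as log2(FPKM + 1), a mean over libraries of 1 FPKM was required, and limma 3.58.1 in R 4.3.3 was fitted with a mean-variance trend and genotype as single factor (two-sided, Benjamini-Hochberg adjustment over all 12336 genes, threshold 0.05). The script was tested on simulated data. The genes and lists were chosen with earlier results of these data known. Named besides the 10 genes are Med23, the 6 other family genes, the 5 nearest profiles to Errfi1 and the neighbours. Per list, up to 4 called genes or else the 1 with the smallest p are named. Adam17, Cbl, Map2k1, Shc1, Myc, Dusp6, Spry2, Ier2, Fosl1, Ngfr, Krt18 and the genes like Erbb3 were chosen after their values were seen. Coordinates are from GENCODE M21. Protein sequences were not used here.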

Additional observations from a re-analysis of the deposited data

How the results depend on the processing

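Over the 9 alternative fits of the 6 libraries, the log2 fold change of Errfi1 ran from -1.59 to -1.52 and that of Erbb3 from 1.48 to 1.72. Erbb3 did not pass the threshold without a filter on low values or without the variance trend. Egfr had a positive log2 fold change of 0.05 with array weights. Leaving out 1 library gave -0.23 to 0.03 for Egfr, positive (0.02, 0.03) when Ctrl replicate 1 or Med23KO replicate 3 was absent. For Ereg it gave -0.18 to 0.04, positive (0.04, 0.02) when Ctrl replicate 3 or Med23KO replicate 2 was absent. The cause was not tested. Of the 10 genes, 2 were called in the fit reported, 1 without a filter, 1 without the trend and 5 in the authors' deposited table, and between 1 and 2 with 1 library left out. The calls over all genes (359) numbered 157 without a filter (73 higher, 84 lower), 549 with median scaling (351 higher, 63.9% of calls, against 51.3% in the fit reported), 1700 with array weights (850 in each direction) and 2054 in the authors' deposited table (1130 higher, 924 lower), and 298 were higher under quantile normalization. With 1 library left out they ran from 13 to 1144 (3 to 749 higher, 10 to 395 lower). For the ErbB pathway lists (5 called), the counts were 3 without a filter, 8 under quantile normalization, 9 with median scaling, 17 with array weights, 17 in the authors' deposited table and 0 to 13 with 1 library left out.

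With a replicate block the calls were 2757 (1180 higher, 1577 lower), 24 in the pathway lists and 3 of the 10 genes, Areg being added. The numbers are not stated to pair the libraries: deviations from the group means correlated at 0.437, -0.0158 and 0.563 between libraries of the same number 1, 2 and 3, and Med23KO replicate 2 correlated best with Ctrl replicate 1 (0.337). The depth behind genes below 1 FPKM, such as Tgfa and Nrg1, is unknown.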
